A study of Mus musculus with 9 samples.

Results

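The 7 genes described here, Ltf, Lcn2, Wfdc2, Sftpd, Pglyrp1, Sprr2f and Tspan8, were grouped as secreted antimicrobial products of epithelium whose signal was low in ovaries cultured with benzo[a]pyrene (BaP). They are 7 of 17889 genes tested, measured by 8 of 25697 probes, because Ltf has a pair of probes. The genes were picked on their BaP values, so their difference between BaP and acetone is given below as a description, with no test. The label holds only in part: Tspan8 encodes a membrane protein and Sprr2f a structural protein of the epithelial cell envelope, and the BaP level of Tspan8 lay just under its acetone level.

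Ovaries of Swiss mice at postnatal day 3 to 4 were kept in organ culture for 96 hours. One group of 3 arrays received the vehicle alone, 0.01% acetone, another group of 3 received 50 nM DMBA (7,12-dimethylbenz[a]anthracene), and the last group of 3 received 1 uM BaP. All groups shared a medium with fetal calf serum, penicillin/streptomycin, basic fibroblast growth factor, leukemia inhibitory factor and stem cell factor, and the labels name no genetic change. Per the labels, the DMBA dose was set in pilot work so as to be overtly toxic. Whether 1 group's arrays stem from different animals or from a shared pool of ovaries is not stated in the labels, and p-values therefore measure only the spread between arrays, which may be technical. Both compounds are polycyclic aromatic hydrocarbons found in smoke.

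Epithelia that line ducts and the reproductive tract secrete proteins that limit bacterial growth. Some withhold iron, some bind or damage the bacterial wall, and some tag microbes for uptake. Ltf encodes lactoferrin, an iron-binding protein that oestrogen induces strongly in the mouse uterus, and Lcn2 encodes lipocalin 2, which captures bacterial iron carriers. Wfdc2 encodes a small secreted whey acidic protein domain protein of the reproductive tract and airway. Sftpd encodes surfactant protein D, a collectin that binds microbial sugars, and Pglyrp1 encodes a protein that binds bacterial peptidoglycan. Sprr2f belongs to the small proline-rich proteins, several of which oestrogen induces in the mouse uterus, and Tspan8 encodes a tetraspanin of epithelial membranes. Ltf, Lcn2 and Pglyrp1 are also known as granule proteins of neutrophils.

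The RefSeq promoter table (build GRCm38.p6) held 6 of the 7 genes, all but Sftpd. The 250 bases before the start site are shown for Ltf, which had the largest BaP difference, for Wfdc2 and Sprr2f, which like Ltf did not pass the test with DMBA, and for Pglyrp1, which rose with DMBA. They lie at chr9:111019042-111019291, chr2:164562465-164562714, chr3:92364937-92365186 and chr7:18884440-18884689, all on the plus strand. Each is written 5′ to 3′, and capitals mark the motif matches described after them.
Ltf promoter: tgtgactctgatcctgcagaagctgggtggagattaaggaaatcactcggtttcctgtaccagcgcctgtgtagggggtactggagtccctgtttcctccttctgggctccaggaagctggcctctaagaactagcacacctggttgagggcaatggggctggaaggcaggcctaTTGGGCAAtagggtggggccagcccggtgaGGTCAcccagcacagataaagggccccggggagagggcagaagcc
Wfdc2 promoter: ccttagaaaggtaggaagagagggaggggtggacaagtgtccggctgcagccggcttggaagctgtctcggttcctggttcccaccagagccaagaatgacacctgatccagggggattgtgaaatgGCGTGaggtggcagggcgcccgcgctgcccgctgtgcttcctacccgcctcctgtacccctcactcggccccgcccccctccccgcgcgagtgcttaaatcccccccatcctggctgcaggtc
Sprr2f promoter: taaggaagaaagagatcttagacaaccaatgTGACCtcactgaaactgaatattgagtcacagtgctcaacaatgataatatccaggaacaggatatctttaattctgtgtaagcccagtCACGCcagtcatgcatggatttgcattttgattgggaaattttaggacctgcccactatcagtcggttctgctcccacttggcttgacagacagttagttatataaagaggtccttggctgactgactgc
Pglyrp1 promoter: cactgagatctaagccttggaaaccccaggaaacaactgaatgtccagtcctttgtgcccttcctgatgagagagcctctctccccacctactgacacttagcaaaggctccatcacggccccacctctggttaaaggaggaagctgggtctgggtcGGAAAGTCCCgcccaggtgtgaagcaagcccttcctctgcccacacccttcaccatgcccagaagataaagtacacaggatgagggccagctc

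Matches were searched on both strands. The core GCGTG, which the aryl hydrocarbon receptor is known to bind, was found in the windows of Wfdc2, 123 bases before the start, and of Sprr2f, 130 bases before it, which is 2 of 6 genes against 28.2% of 27025 promoters. The oestrogen response half-site GGTCA was found for Ltf, 45 bases before the start, and for Sprr2f, 219 bases before it, against 34.9% of promoters, and the palindromic oestrogen response element, that half-site facing its reverse complement across 3 bases, for none of the 6, against 0.0629%. The CCAAT/enhancer-binding letters TTGCNNAA were found for Ltf, Lcn2 and Tspan8, against 9.55%. The Tspan8 window, chr10:115817034-115817283, lies inside the annotated gene, which begins at 115816817. A kappaB site was found for Pglyrp1 alone, 93 bases before the start, against 7.01%, and the interferon gamma letters TTCNNNGAA for none, against 7.18%. No motif searched was found in all 6 windows.

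Levels below are log2 signals after background correction and quantile normalization of an Illumina mouse Ref-8 beadchip, and they are compared only within a gene. BaP arrays were the dimmest, with a median raw signal of 94.7 to 104.1, beside 105.8 to 133.7 with acetone and 105.2 to 126 with DMBA. The gap was wider at the upper quartile of raw signal, at 199.6 to 231.2 with BaP, 268.1 to 418.8 with acetone and 250.5 to 360.6 with DMBA. With quantile normalization, limma called 842 genes up and 1049 down with BaP against acetone. Scaling each array to a common median instead called 253 up and 4877 down and moved the middle of the genes above the median level by -0.38. The array labelled DMBA replicate 3 lay farthest from its group (SD of its deviations 0.153, against 0.079 to 0.123 on the other arrays). The tissue label was checked on 12 markers of oocytes and granulosa cells, of which 9 had a mean level above the median of all genes. Of these markers, limma called 0 with DMBA and called Ddx4 (0.47) and Foxl2 (0.44) higher and Gdf9 (-0.34) and Inha (-0.31) lower with BaP. Median scaling ended the call of Foxl2, leaving out acetone replicate 1 ended those of Gdf9 and Inha, and leaving out BaP replicate 2 ended that of Gdf9. A normexp offset of 16 in the background correction ended the calls of Foxl2, Gdf9 and Inha. Fitting all 9 arrays together ended those of Gdf9 and Inha. Beside the count of 0 with DMBA stand 1828 of all genes at an unadjusted p under 0.05.

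Ltf gave levels of 10.98, 10.85 and 10.81 on the acetone arrays. It gave 10.86, 10.73 and 10.99 on the DMBA arrays and 6.64, 6.83 and 6.79 on the BaP arrays. Acetone and DMBA arrays overlapped, and every BaP array was far below both. The mean was 10.88 ± 0.09 with acetone and 6.76 ± 0.10 with BaP (SD, n = 3), a log2 difference of -4.13 (SE 0.09), or 17.4-fold. That size moved with the background step, from -3.77 in the deposited log2 values to -4.65 with a normexp offset of 16. The raw signal was 1737.2 to 2904.6 with acetone and 106.9 to 129.7 with BaP, close to the median raw signal of those arrays. The other Ltf probe was dim on all arrays, at raw signals of 83.5 to 129.6, and differed by -0.24 between BaP and acetone and by 0.05 between DMBA and acetone.

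**Figure D1:**
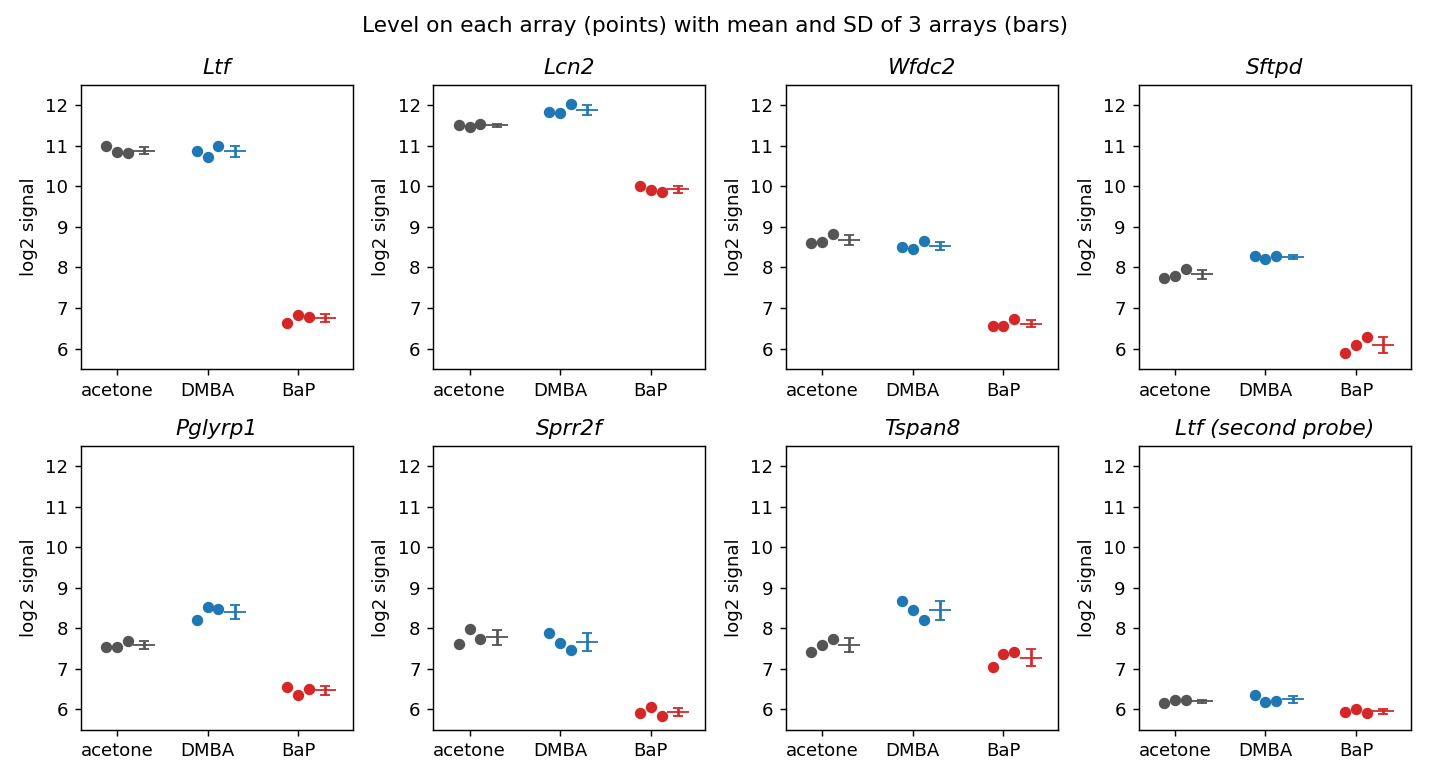
Log2 signal of each gene on every array (points), with the mean and SD of the 3 arrays of a group beside them; x axis, culture group; the last panel is the dim second probe of Ltf. BaP arrays lie lowest in every panel, at mean differences from acetone of -4.13 for Ltf and -0.31 for Tspan8, while DMBA arrays lie above acetone arrays for Lcn2, Sftpd, Pglyrp1 and Tspan8.

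Lcn2, the other iron-related gene, was at 11.51, 11.47 and 11.54 with acetone. It was at 11.82, 11.80 and 12.02 with DMBA and at 10.02, 9.92 and 9.85 with BaP. The 3 groups did not overlap, with DMBA highest and BaP lowest. The BaP level was lower than acetone by a log2 difference of -1.58 (SE 0.08), from 11.51 ± 0.04 to 9.93 ± 0.08, which is 2.98-fold. At raw signals of 666.6 to 796.7, Lcn2 stayed well above the array median with BaP.

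Wfdc2 was at 8.61, 8.62 and 8.83 with acetone, at 8.51, 8.45 and 8.65 with DMBA and at 6.56, 6.56 and 6.72 with BaP. As for Ltf, the acetone and DMBA arrays overlapped and the BaP arrays stood apart. The BaP difference was -2.07 (SE 0.09), or 4.20-fold, between 8.69 ± 0.12 and 6.62 ± 0.09. Raw BaP signals of Wfdc2 were 103.8 to 115.2, near the array medians, and the difference was -1.71 in the deposited log2 values and -2.56 with the offset of 16.

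Sprr2f showed the same arrangement at lower signals. Its levels were 7.61, 7.97 and 7.73 with acetone, 7.89, 7.63 and 7.45 with DMBA and 5.92, 6.05 and 5.85 with BaP. Its BaP difference was -1.83 (SE 0.09), or 3.56-fold. The raw BaP signals of Sprr2f, 83.1 to 94.2, lay at percentiles 7.42 to 32.6 of their arrays, in the lower part of the range, where the measured fold depends on the background correction: it was -1.33 in the deposited log2 values and -2.76 with a normexp offset of 16. Sprr2 genes are close copies of each other, and how far the probe reads its relatives was not tested.

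Sftpd and Pglyrp1 encode proteins that recognise microbes. Sftpd was at 7.73, 7.80 and 7.96 with acetone, at 8.28, 8.22 and 8.28 with DMBA and at 5.89, 6.08 and 6.29 with BaP. Pglyrp1 was at 7.53, 7.55 and 7.69 with acetone, at 8.19, 8.53 and 8.47 with DMBA and at 6.55, 6.35 and 6.51 with BaP. For both genes the groups did not overlap and stood in the order DMBA, acetone, BaP. The BaP difference from acetone was -1.74 (SE 0.10) for Sftpd and -1.12 (SE 0.09) for Pglyrp1. Raw BaP signals were 82.2 to 98.6 for Sftpd, below the array medians, and 102.9 to 106.4 for Pglyrp1, just above them. As for Sprr2f, the size for Sftpd moved with the background step, from -1.29 in the deposited log2 values to -2.53 with the offset of 16, and that for Pglyrp1 from -0.84 to -1.54.

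Tspan8 was at 7.42, 7.60 and 7.74 with acetone, at 8.67, 8.45 and 8.19 with DMBA and at 7.05, 7.37 and 7.41 with BaP. The highest BaP array and the lowest acetone array were almost level, so the BaP difference of -0.31 (SE 0.10) was of the size of the spread, with SDs of 0.16 and 0.20. The DMBA arrays were clear of both groups. Ordered by the BaP difference from acetone over all 17889 genes, Ltf was at place 1 from the lowest, Wfdc2 at 5, Sprr2f at 6, Sftpd at 7, Lcn2 at 8 and Pglyrp1 at 15, while Tspan8 was at 755. Every BaP array was below every acetone array in all 7 genes, and 13.3% of all genes show this. The choice of the genes fixes that count, and nothing is read from it. In bulk tissue, fewer cells of a type and less RNA per cell cannot be told apart.

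In the authors' deposited table the linear ratio of acetone over BaP was 13.7 for Ltf, 3.26 for Wfdc2, 3.04 for Lcn2, 2.51 for Sprr2f, 2.44 for Sftpd, 1.79 for Pglyrp1 and 1.19 for Tspan8. The authors' deposited table holds 205 probes in its selection for BaP, and they include 6 of the 7 genes, all but Tspan8. The ratio in the authors' deposited table is smaller than the fold given here for each of these genes except Lcn2.

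The comparison of DMBA with acetone was not used to pick the genes, though it shares the acetone arrays with the one that was. Of the 7 genes, 3 rose with DMBA and none fell by limma's test with Benjamini-Hochberg adjustment over all genes, where 0.716% of all genes rose, 0.324% fell and 1.04% changed in either direction. Tspan8 rose 1.80-fold, from 7.59 ± 0.16 to 8.44 ± 0.24 (log2 difference 0.85, SE 0.12, adjusted p = 0.00896). Pglyrp1 rose 1.75-fold, from 7.59 ± 0.09 to 8.40 ± 0.18 (0.81, SE 0.10, adjusted p = 0.0048). Sftpd rose 1.35-fold, from 7.83 ± 0.12 to 8.26 ± 0.04 (0.43, SE 0.08, adjusted p = 0.0385). Lcn2 was at a log2 difference of 0.37 (SE 0.08), which missed the threshold (adjusted p = 0.0736). In these 4 genes every DMBA array was above every acetone array, an arrangement that 6.69% of all genes show, while 8.96% show the reverse.

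The other 3 genes did not pass with DMBA, and their arrays overlapped with those of acetone. The log2 difference was -0.02 for Ltf (95% interval -0.22 to 0.18), -0.15 for Wfdc2 (-0.35 to 0.05) and -0.12 for Sprr2f (-0.39 to 0.15). Whether the responses of the 7 genes to DMBA differ from each other was not tested. Among the DMBA differences of all genes, Tspan8 was at percentile 99.8, Pglyrp1 at 99.8, Sftpd at 99.0 and Lcn2 at 98.6, beside 48.4 for Ltf, 17.9 for Sprr2f and 12.2 for Wfdc2.

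**Figure D2:**
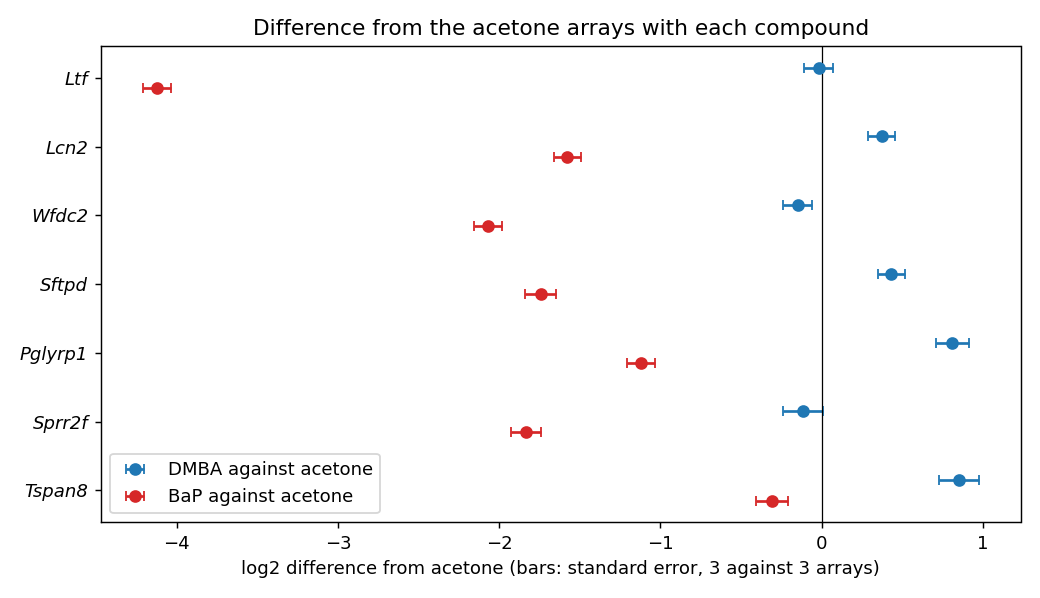
Log2 difference from acetone of each gene (brightest probe) with DMBA in blue and with BaP in red; bars are the standard error of 3 against 3 arrays. BaP values run from -4.13 for Ltf to -0.31 for Tspan8, and DMBA values from -0.15 for Wfdc2 to 0.85 for Tspan8.

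The number of genes called with DMBA rested on single arrays. It was 1 without acetone replicate 1, 0 without acetone replicate 2, 2 without acetone replicate 3, 2 when DMBA replicate 1 was left out, 1 when replicate 2 was, and 4 without DMBA replicate 3, when Lcn2 passed too. Under median scaling 0 of the 7 passed, when 3 of all genes did, at differences of 0.83 for Tspan8, 0.78 for Pglyrp1 and 0.40 for Sftpd. The call of Sftpd was the least stable: it held in 4 of 14 alternatives, against 9 for Tspan8 and 12 for Pglyrp1, and was lost without every single array except DMBA replicate 3 and in the deposited log2 values. Over the 14 alternatives the difference stayed above 0 for these 3 genes and for Lcn2. In the authors' deposited table the selection for DMBA holds 110 probes, and Pglyrp1 and Tspan8 are among them, at acetone over DMBA ratios of 0.616 and 0.600 in the authors' deposited table.

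Set directly against DMBA, at doses that differ, the BaP level was lower by a log2 difference of -4.11 for Ltf, -2.17 for Sftpd, -1.95 for Lcn2, -1.93 for Pglyrp1, -1.92 for Wfdc2, -1.72 for Sprr2f and -1.16 for Tspan8. For Sftpd, Pglyrp1, Lcn2 and Tspan8 this is wider than the difference from acetone, and for Ltf, Wfdc2 and Sprr2f it is nearly equal to it or smaller. All BaP arrays were below all DMBA arrays in the 7 genes, as in 7.83% of all genes, while 9.09% show the reverse. These values share the BaP arrays with the comparison the genes were picked on and are given without a test.

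The relatives of these genes were examined in the same fits. The 7 families hold 73 further measured genes, of which 2 rose and 4 fell with BaP, 8.22% against 10.6% of all genes called. Under median scaling 2 rose and 19 fell, with 11 of the lower calls among the tetraspanins, beside the 4877 lower calls over all genes. Sprr2g, a close relative of Sprr2f, fell by 0.58 on the log2 scale (SE 0.08, adjusted p = 2.08e-05), from 6.57, 6.59 and 6.71 with acetone to 6.06, 5.97 and 6.08 with BaP. It was the 1 relative called with DMBA as well, at -0.44 (limma adjusted p = 0.0428), a call that was lost under 8 of 12 alternatives, without any of the 3 acetone arrays or without DMBA replicate 2 among them. Sprr2a1, another relative, was at -0.06 with BaP and -0.11 with DMBA and did not pass. Wfdc18 (-0.38) and Wfdc6a (-0.30), of the whey acidic protein family, and the tetraspanin Tspan7 (-0.34) also fell with BaP. The tetraspanins Upk1b (0.45) and Tspan9 (0.35) rose, calls that median scaling ended. Between BaP and DMBA, where 1.46% of all genes were called, Upk1b (0.49) was higher with BaP and the lipocalin family gene Ptgds (-0.45) lower. Both calls held in 4 of 12 alternatives and were lost under the replicate block, in the deposited log2 values, without any BaP array and without DMBA replicate 2, that of Ptgds also without DMBA replicate 1.

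Without acetone replicate 2, Wfdc6a, Tspan7 and Tspan9 no longer passed. They were lost as well with a normexp offset of 16 and with all 9 arrays in 1 fit. Wfdc6a was also lost without acetone replicate 1 or 3 and Wfdc6a and Tspan9 without BaP replicate 2. Slpi, the secreted leukocyte protease inhibitor of the Wfdc2 family, was at 0.24 with BaP. Trf, the transferrin relative of Ltf, was at -0.09. The other bacterial wall receptors Pglyrp3 (-0.05) and Pglyrp4 (0.12) and the collectin Sftpa1 (-0.01) were near 0, none past the test. Slpi, Pglyrp3, Pglyrp4 and Sftpa1 lay at mean percentiles 26.4, 12.2, 22 and 22 of the arrays, beside 89.3 for Trf. Such dim probes can hardly show a fall. Of 12 other lipocalin family genes limma called 0 with BaP against acetone, beside 3844 of all genes at an unadjusted p under 0.05, and they ranged from -0.28 to 0.13. These lipocalin genes were mostly dim too, at mean percentiles of 7.3 (Orm3) to 43 (Rbp4), with Ptgds alone higher, at 61.6.

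**Figure D3:**
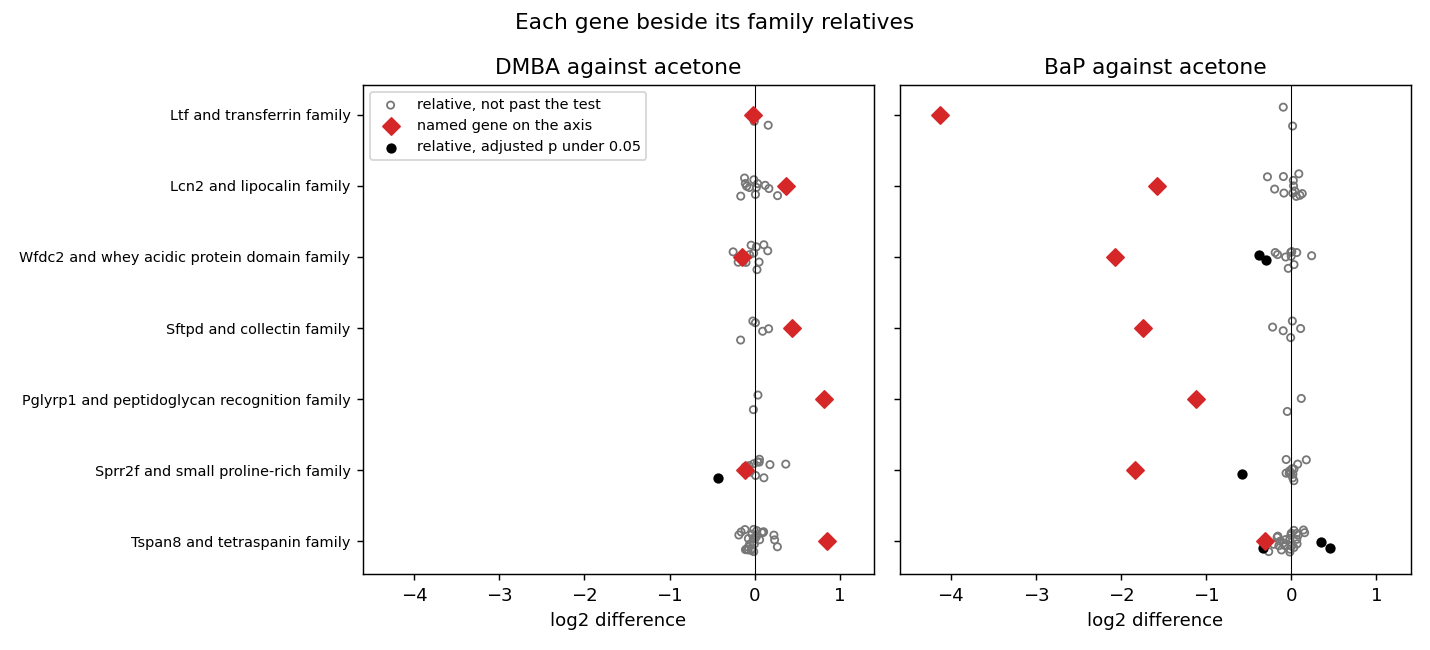
Log2 difference with DMBA (left) and BaP (right) against acetone for each of the 7 genes (red diamonds) beside the measured relatives of its family (circles; filled where limma's adjusted p was under 0.05). With BaP the relatives lie between -0.58 and 0.45, and 6 of the 7 diamonds lie below that range. The 7 genes were picked on their BaP values, which fixes that placing, and nothing is read from it. The relatives range from dim (Orm3, mean percentile 7.3) to bright (Cd81, 99.6), and the dim ones can hardly show a fall.

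A further list held 46 measured genes of other secreted defence proteins. With BaP 2 rose and 3 fell, shares near the 4.71% and 5.86% of all genes, and under median scaling 0 rose and 8 fell. The list mixes bright genes such as Lyz1 (mean percentile 99.7) with many dim ones, such as Tff3 (11) and Reg3a (14.1). Dim genes can hardly show a fall, so the count does not show that expressed defence genes stayed level. Cxcl15, named next, lay at 38.8. Saa3, an acute-phase protein gene, rose by 0.59 and Chil1, a chitinase-like protein gene, by 0.68, while the chemokine gene Cxcl15 (-0.56), Zg16 (-0.34) and the lectin gene Lgals3 (-0.26) fell. With DMBA 2 rose, Chil1 (0.73) and Lgals3 (0.60), and Cxcl15 (-0.48) fell. Lgals3 shares with Sftpd and Pglyrp1 the order DMBA, acetone, BaP, but its BaP call was lost without any single array. The call of Lgals3 with DMBA was lost without acetone replicate 2. That of Cxcl15 with DMBA was lost without acetone replicate 2 or 3 or DMBA replicate 2, and that of Zg16 with BaP without acetone replicate 2 or 3 or BaP replicate 1. Under median scaling Saa3 and Chil1 kept their direction and no longer passed.

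A list of 13 genes held the oestrogen receptor gene Esr1 beside genes taken as induced by oestrogen in the female tract. Of these 13, 2 rose and 5 fell with BaP, Esr1 among the latter, against 4.71% and 5.86% of all genes. The list was chosen with earlier results of these data known, so nothing is read from its counts. Padi1, which encodes an enzyme that converts arginine to citrulline in proteins, fell by 2.90 on the log2 scale, Gjb2 by 0.43, Greb1 by 0.34, C3 by 0.33 and the receptor gene Esr1 by 0.25. The growth factor genes Igf1 (0.47) and Areg (0.41) rose, and median scaling turned Igf1 to -0.02. With DMBA, Padi1 fell by 1.70, with 9.22, 9.16 and 9.36 on the acetone arrays and 7.49, 7.39 and 7.76 on the DMBA arrays, whereas Ltf, Wfdc2 and Sprr2f did not pass, and this difference between genes was not tested. Of the genes in all lists called with DMBA, Padi1 alone still passed under median scaling. Greb1 fell by 0.43 with DMBA, a call lost without each single array except DMBA replicate 3. The BaP calls of Esr1 were lost without each single array except acetone replicate 3, and that of C3 without acetone replicate 2 or BaP replicate 1.

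Markers of cells that could carry these transcripts were examined in the same fits. Like the lists before, they were chosen with earlier results of these data known. Their counts beside the shares of all genes carry no test. Of 29 markers of epithelium and mesothelium, 2 rose, 7 fell and 20 did not pass with BaP, against 4.71% and 5.86% of all genes higher and lower, and under median scaling 1 rose and 12 fell. Among those that fell were Krt19 (-0.63) and Krt18 (-0.32), keratin genes of simple epithelium, the epithelial transcription factor gene Elf3 (-0.56), the cadherin gene Cdh1 (-0.42), the tight junction gene Cldn4 (-0.37) and Lgr5 (-0.30). Aldh1a1 (0.41) and Esrp1 (0.27) rose, and median scaling turned them to -0.08 and -0.22. The mean log2 level of the 29 markers ranged from 7.20 to 7.24 with acetone, from 7.18 to 7.22 with DMBA and from 7.08 to 7.13 with BaP. With DMBA, 1 of them, the mesothelial gene Upk3b, rose (0.48), a call lost without any acetone array or without DMBA replicate 2. The part of epithelial cell number in the BaP levels of the 7 genes was not tested. The BaP call of Cldn4 was lost without acetone replicate 2, that of Krt18 without acetone replicate 3, that of Lgr5 without acetone replicate 2 or 3 or BaP replicate 1, and that of Esrp1 without any array except acetone replicate 2.

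Because Ltf, Lcn2 and Pglyrp1 are also neutrophil granule genes, 27 neutrophil markers were examined. With BaP 1 rose, 3 fell and 23 did not pass, against 4.71% and 5.86% of all genes higher and lower, at a median difference of -0.01. Camp, an antimicrobial peptide gene of the same granules as Ltf, rose by 0.48, from 6.71, 6.76 and 6.79 with acetone to 7.27, 7.23 and 7.18 with BaP, and median scaling ended that call. Mmp9 (-0.77), Fpr2 (-0.75) and Clec4d (-0.47) fell, and the call of Clec4d was lost with a normexp offset of 16 and with all 9 arrays in 1 fit. The granule protease and peroxidase genes Elane (0.17), Ctsg (-0.01), Mpo (-0.06) and the granule gene Ngp (-0.07) did not pass, and lay at mean percentiles 34.1, 17.4, 23.4 and 32 of the arrays, among the dim probes. With DMBA, S100a8 rose by 1.10, from 6.28, 6.16 and 6.19 to 7.37, 7.46 and 7.10, while its partner gene S100a9 was at 0.28 without passing. Stfa1 rose by 0.44 and Mmp9 fell by 0.74. The call of Stfa1 was lost without each single array except DMBA replicate 3, and that of Mmp9 without acetone replicate 2.

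Of the 27 neutrophil markers 7 were above the median level of all genes. Their mean log2 level ranged from 6.41 to 6.44 with acetone, from 6.43 to 6.48 with DMBA and from 6.34 to 6.39 with BaP, and their part in the levels of the 7 genes was not tested. Of 14 macrophage and leukocyte markers, 10 fell with BaP and none rose, against 5.86% and 4.71% of all genes, led by Coro1a (-1.21), Cd52 (-1.08), Cx3cr1 (-0.83) and Tyrobp (-0.64). C1qb (0.88) and C1qc (0.65) rose with DMBA, calls that both ended without acetone replicate 1 or 2 or DMBA replicate 2, and that of C1qb also without acetone replicate 3. The mean level of these 14 markers was 7.71 to 7.81 with acetone, 7.89 to 7.93 with DMBA and 7.23 to 7.29 with BaP. Single markers did not all share that order. With DMBA, those that led the BaP fall were at -0.14 (Coro1a), -0.16 (Cd52), -0.12 (Cx3cr1) and 0.12 (Tyrobp), none past the test. The median DMBA difference of the list was 0.0154, beside -0.0135 over all genes. The part of these markers in the levels of the 7 genes was not tested. The median BaP difference from acetone was -0.47 over the leukocyte list, -0.06 over the epithelial list, -0.08 over the oestrogen list and -0.03 over the other defence genes, beside -0.0049 over all genes. These medians are not on equal terms, because dim genes can hardly show a fall. Above the median level of all genes were 13 of the 14 leukocyte markers but 16 of the 29 epithelial ones.

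**Figure D4:**
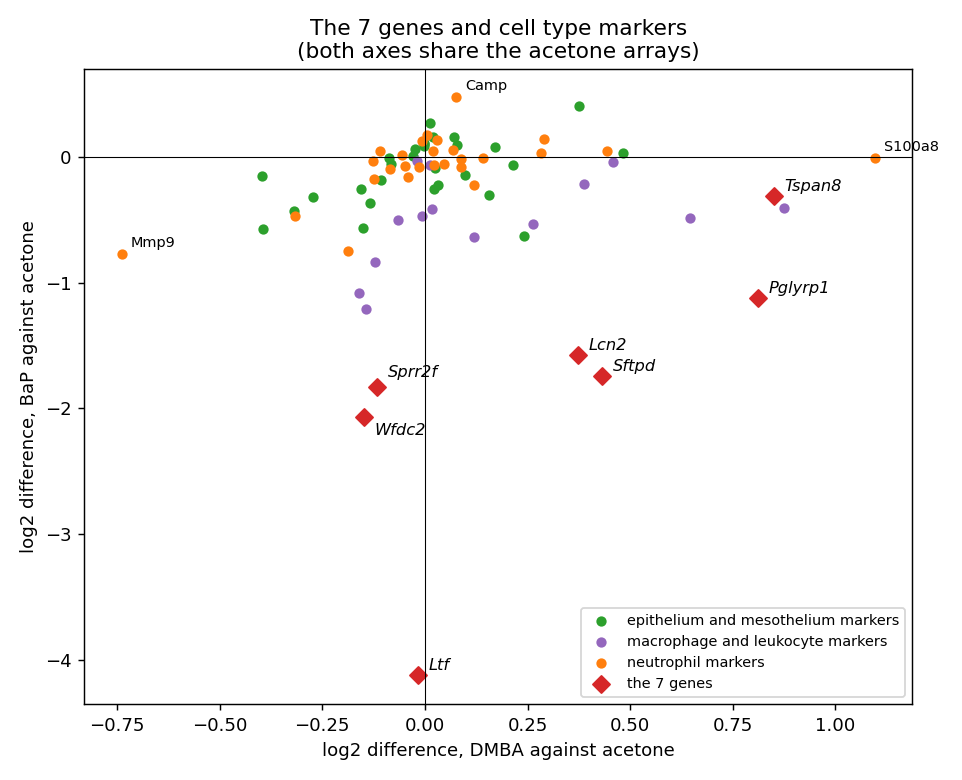
Log2 difference with DMBA (x axis) and BaP (y axis) against acetone for the 7 genes (red diamonds) and for markers of epithelium and mesothelium, macrophages and leukocytes, and neutrophils. Both axes share the acetone arrays, so points have no independent axes. On the y axis, 6 of the 7 genes have BaP differences of -1.12 or lower, and Coro1a, at -1.21, is the lowest marker. The 7 genes were picked on their BaP values, so nothing is read from their place on that axis.

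The genes whose levels over the 9 arrays were most like the mean scaled profile of the 7 were taken among 58 other genes with a range of at least 1 log2 unit between group means. They were the antigen-presenting gene H2-K1 (r = 0.98), Rpusd4 (0.97), the LIM domain gene Csrp1 (0.97), the leukocyte gene Cd52 (0.94), the antigen-presenting gene H2-T23 (0.93), the claudin gene Cldn12 (0.92), the leukocyte actin regulator Coro1a (0.92) and the interferon-induced GTPase gene Ifi47 (0.92). Their means were lower with BaP than with acetone by log2 differences of -2.88 for H2-K1, -1.25 for Rpusd4, -0.93 for Csrp1, -1.18 for Cldn12, -1.02 for H2-T23 and -1.04 for Ifi47. These are correlations over 9 arrays of 3 groups, which mostly follow the group means, and carry no test. Each of the 7 genes correlated with the mean of the other 6 at 0.94 to 1.00, except Tspan8 at 0.74.

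Within groups the 7 genes did not share a common order of arrays. Over the 9 arrays, deviations from the group means correlated between -0.71 (Lcn2 and Tspan8) and 0.76 (Wfdc2 and Sftpd) in the 21 pairs of genes, with 11 pairs above 0. Wfdc2 and Sftpd were both highest on replicate 3 of the acetone group and of the BaP group, by 0.14 and 0.13 over the acetone mean and by 0.10 and 0.20 over the BaP mean.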

How the data were processed

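The members and gene lists were chosen with earlier results of these data known. Per the file headers, the authors deposited a linear intensity per probe without normalization. The authors also deposited log2 values of the same arrays (the submitters' processing notes name lumi), and reports with a linear ratio and an unadjusted p-value per probe. The transform, the background step of the scanner software and the model behind the p-values are not given in the sources used here, and there are no detection p-values.

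Value tables and reports share no key. Each probe took the report row whose ratios, as log2, for both compounds matched its differences of group means within 0.0001, the next row lying at least 5 times as far off, which paired 25649 probes. Names were updated through a GRCm38.p6 RefSeq table.

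Intensity was corrected with normexp (offset 50), quantile normalized over 9 arrays and put on the log2 scale. The probe with the highest mean stood for a gene. R 4.3.3 with limma 3.58.1 (lmFit, eBayes) fitted the 6 arrays of a comparison alone. Tests were two-sided, p-values were adjusted by Benjamini-Hochberg across 17889 genes, and the threshold was 0.05. The fit was tested on simulated data. Python 3.11.15 with pandas 2.3.3, scipy 1.17.1 and matplotlib 3.10.9 served for pairing and plots. The number of arrays limits the precision (median standard errors of 0.088 and 0.087 against acetone, for DMBA and BaP in turn). Named list genes are up to 4 called genes per list and comparison with the largest differences whose groups do not overlap, plus family relatives, and further called genes were named after their values were seen where a count was small; 1 listed gene is not reported here. Alternatives were median scaling, another offset, no background correction, the deposited log2 values, a filter on dim genes, every probe, all 9 arrays in a single fit, a replicate block and leaving out each array.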

Additional observations from a re-analysis of the deposited data

How the results depend on the processing

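The differences of the 7 genes with BaP stayed below 0 in all 98 values over the alternatives, and so did all 98 between BaP and DMBA. The genes were picked on their BaP values, and the alternatives use the same arrays, so nothing is read from these directions. The sizes of the BaP differences from acetone moved most where BaP signals were low: Sftpd ranged from -2.53 with a normexp offset of 16 to -1.29 in the deposited log2 values. Of 98 values with DMBA, 96 kept their direction, 17 lost the call and 2 gained it. Ltf turned above 0 without DMBA replicate 2 (0.0468) and without acetone replicate 1 (0.0339), over a range of -0.0835 to 0.0468 when single arrays were left out. The number of the 7 genes called with DMBA, 3, became 0 under median scaling and 1 in the deposited log2 values, and 0 to 4 without single arrays; the cause was not tested.

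Over all genes the 186 calls with DMBA became 3 under median scaling, 116 with no background correction, 98 in the deposited values, 297 with all 9 arrays in 1 fit and 22 (without acetone replicate 2) to 820 (without DMBA replicate 3) with 1 array left out; 56 without DMBA replicate 2, 65 without acetone replicate 1 and 59 without acetone replicate 3 also moved. The 1891 with BaP became 5130, 689 with the offset of 16, 1081 with all 9 arrays and 1082 (without acetone replicate 2) to 1787. The 261 between BaP and DMBA became 2072, 145, 458 and 77 (without BaP replicate 3) to 774 (without DMBA replicate 3), with 86, 90 and 85 without BaP replicate 1, BaP replicate 2 and DMBA replicate 2. With the replicate number as a block these counts were 210, 1481 and 136. Among list genes, the offset of 16 also ended BaP calls not marked so above, such as those of Gjb2, Greb1, Cldn4 and Krt18. Over all genes, same-numbered arrays did not deviate together (r from -0.19 to 0.14 over pairs of arrays). Dim genes weigh in that figure, so it cannot settle whether these arrays share more than a number.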
